A study of Mus musculus with 2 samples.

Results

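The Notch ligands Dll1, Dll3 and Jag1, the receptors Notch1 and Notch2, the receptor-modifying enzyme Lfng and the target genes Hes1, Hes5, Hey1 and Nrarp were followed through dorsal spinal cord cultures made from mouse embryonic stem cells. The 10 genes were picked by symbol, and each matched 1 of the 31053 genes in the count tables. RA+BMP4 cultures of the MM13 embryonic stem cell line received retinoic acid, which gives neural cells a caudal identity, together with bone morphogenetic protein 4, a dorsalizing signal of the kind released by the roof plate. RA cultures of the same line received retinoic acid without it, and both were harvested on day 9 of differentiation. The sources used here state neither the dose of BMP4 nor when it was added. Cells were freed with cold trypsin, dead cells were removed, and 3' transcripts were captured on the 10x Genomics Chromium platform (v3 chemistry), with 1 library for each condition.

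In Notch signalling, a ligand on a sender cell binds a receptor on its neighbour, the receptor is cut, and its intracellular part joins the DNA-binding protein Rbpj to switch on Hes and Hey repressors in that receiver cell. In the embryonic spinal cord, newborn neurons carry Delta ligands that hold their neighbours as progenitors, because Hes proteins repress the proneural genes that drive neuronal differentiation. Dll1 and Jag1 are known to occupy alternating dorsoventral progenitor domains there, Hes5 is known as a Notch target of the dividing zone, and Hes1 is also known from boundary regions such as the roof plate.

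The RA+BMP4 library held 13121 barcodes and 115268932 unique molecular identifiers (UMIs, each 1 captured transcript molecule), and the RA library held 9704 barcodes and 122110565 UMIs. After filtering, 8350 RA+BMP4 cells with a median of 10465 UMIs and 5900 RA cells with a median of 14196 UMIs were kept. Only 43 barcodes occurred in both libraries, 21 of them among kept cells. With 1 library per condition there was no replicate error, no difference between conditions was tested, and brackets hold 95% intervals for counting error only. Levels are CPM, the UMIs of a gene scaled to a common total of UMIs in the same cells. They are not divided by transcript length, since each UMI stands for 1 captured molecule. Each gene is compared with itself and not with another gene. Cells were clustered without the 10 genes, without 42 other pathway genes and without all cell type markers, and clusters were then named from markers. Although the labels call the material differentiated neurons, neuron-like cells were 35.8% of kept RA+BMP4 cells and 41.3% of kept RA cells. Progenitor-like cells, led by Hopx, Wnt7b and Msx3, were 4.49% in RA+BMP4 and 13.4% in RA. Roof plate-like cells were 35.0% in RA+BMP4 and 18.4% in RA, and only their Pla2g7-led cluster had roof plate markers among its leading genes. Newborn neuron-like cells, led by Neurog2, Neurod4 and Atoh1, were 8.24% in RA+BMP4 and 11.4% in RA.

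Across all kept cells, Hes5 was lower and Hes1 was higher in RA+BMP4 than in RA. Hes5 had 16.6 CPM [15.8-17.4] in RA+BMP4, against 41.5 CPM [40.3-42.7] in RA, a ratio of 0.401 [0.379-0.424]. Hes1 had 61.2 CPM [59.7-62.7] in RA+BMP4, against 37.1 CPM [35.9-38.2] in RA, a ratio of 1.65 [1.59-1.72]. Both encode repressors that block neuronal differentiation, and the library that had less of the first had more of the second. Nrarp, a target that feeds back to dampen Notch activity, had 8.92 CPM in RA+BMP4 and 17.2 CPM in RA, a ratio of 0.517. Dll1 stood at 23.2 CPM in RA+BMP4 and 35.6 CPM in RA, a ratio of 0.652, and Notch1 at 37.3 CPM and 51.0 CPM, a ratio of 0.731. The remaining members lay closer together, with ratios of 1.13 for Notch2, 1.05 for Dll3, 0.915 for Jag1, 0.834 for Lfng and 0.833 for Hey1. So Dll1, Notch1, Hes5 and Nrarp lay lower in RA+BMP4, and Hes1 was the member furthest on the higher side.

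A gene counted as apart when it reached 20 CPM in at least 1 library and differed at least 2-fold. Of the 6 members that reached this level, 1 was lower (Hes5) and none was higher, against 0.601% lower and 0.839% higher among all 7152 genes that did. The 6 members had a median log2 ratio of -0.19, against 0.07 over all those genes. Pluripotent-like cells made up 1.964% of RA+BMP4 cells and 5.47% of RA cells but held 6.47% and 16.8% of the UMIs in those libraries. Without them Nrarp joined Hes5 as lower, with 9.33 CPM in RA+BMP4 and 20.5 CPM in RA, against 0.363% lower, 0.797% higher and 1.16% either way among 7156 genes. Because the libraries differ in their mix of cell types, fewer cells of a type and less RNA per cell cannot be told apart in these sums. When each of the 22 clusters with at least 20 cells in both libraries was given the same weight in each, a setting chosen once the values were known, Hes5 had 20.1 CPM in RA+BMP4 and 36.2 CPM in RA, a ratio of 0.555, and no member was 2-fold apart. Hes1 then had a ratio of 1.27 and Dll1 a ratio of 0.910.

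**Figure D1:**
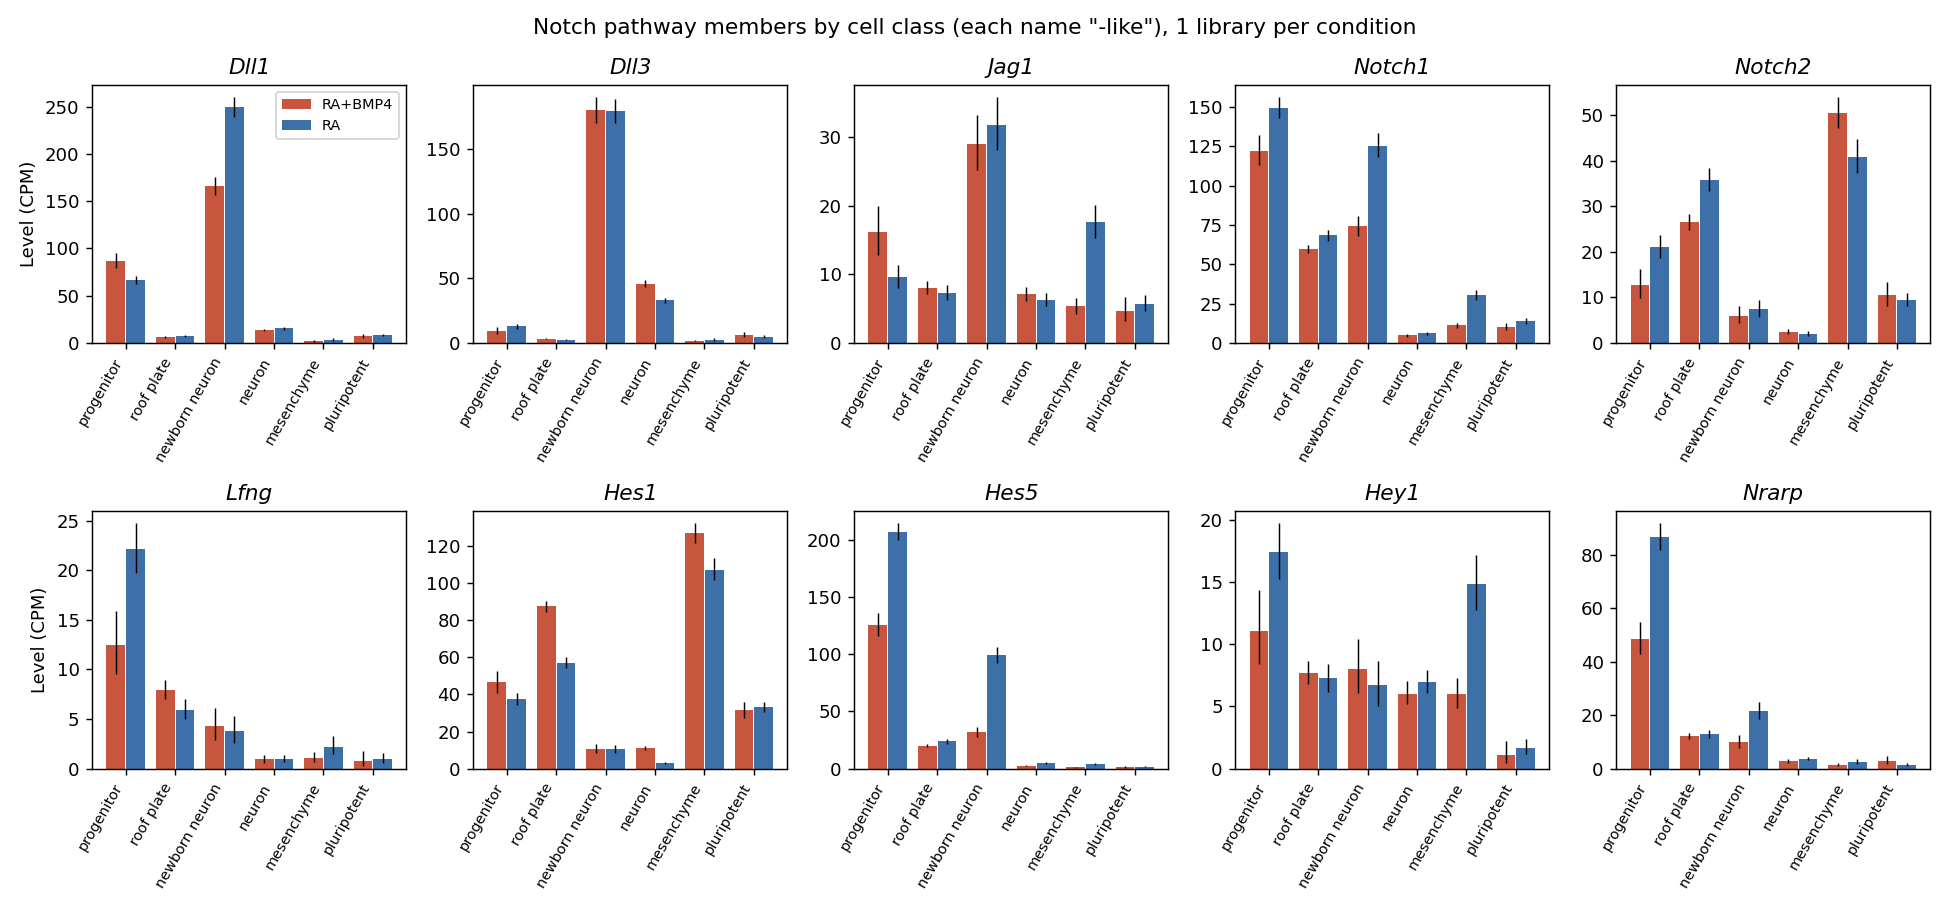
Level of each member in CPM (y axis, from 0, own scale per gene) in 6 cell classes, with RA+BMP4 in red and RA in blue. Bars are 1 library each and error bars are 95% Poisson intervals of counting. Dll1 and Dll3 stand highest in newborn neuron-like cells, Hes5, Nrarp and Lfng in progenitor-like cells, and Notch2 and Hes1 in mesenchyme-like cells.

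Dll1 (chr17:15367354-15376872, minus strand, GRCm38), the main Delta ligand of the spinal cord, was concentrated in newborn neuron-like cells. These cells had 166 CPM [157-176] in RA+BMP4 and 249 CPM [239-260] in RA. Progenitor-like cells came next, with 86.8 CPM [78.9-95.2] in RA+BMP4 and 66.1 CPM [61.9-70.6] in RA, and neuron-like cells followed with 13.7 CPM and 15.3 CPM. Pluripotent-like and roof plate-like cells did not differ beyond their intervals within either library, at 6.98 and 6.51 CPM in RA+BMP4 and 8.14 and 7.17 CPM in RA, and mesenchyme-like cells were lowest at 1.85 CPM and 3.47 CPM. A single RA+BMP4 pluripotent-like cell held 18 of the 46 Dll1 UMIs of its class. Without the top cells, pluripotent-like cells had 4.29 CPM and roof plate-like cells 5.83 CPM in RA+BMP4. The order of the other classes was the same in both libraries, but the sign of the difference was not. Dll1 was lower in RA+BMP4 among newborn neuron-like cells (log2 ratio -0.58) and higher among progenitor-like cells (0.39). Neither difference held under every setting. Over the alternatives the newborn neuron-like log2 ratio ran between -0.66 and 0.02 and the progenitor-like log2 ratio between -0.72 and 0.43. Clustering each library alone gave the -0.72.

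Within the newborn neuron-like class, the libraries drew on 2 clusters in different proportions. The Neurog2-led cluster held 373 RA+BMP4 cells and 587 RA cells, and its Dll1 level was 182 CPM in RA+BMP4 and 270 CPM in RA. The Atoh1-led cluster, whose leading gene marks the dorsalmost neuronal precursors, held 315 RA+BMP4 cells and 84 RA cells, with 148 CPM and 129 CPM. Compared cluster by cluster, Dll1 was lower in RA+BMP4 in the Neurog2-led cluster and not in the Atoh1-led one. The Atoh1-led cluster, lower in Dll1 than the Neurog2-led one in both libraries, was also a larger part of the RA+BMP4 class. How much of the class difference came from this mix and how much from the levels was not tested. Among the newborn neuron markers themselves, Atoh1 had 152 CPM in RA+BMP4 and 41.1 CPM in RA, and 7 of 10 markers were higher in RA+BMP4, with a summed level of 2495 CPM in RA+BMP4 and 2089 CPM in RA. The part of these markers in the Dll1 difference was not tested.

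Dll3 (chr7:28293553-28302238, minus strand), a Delta relative known to act inside the cell that makes it rather than to activate neighbours, was high in newborn and older neurons. Newborn neuron-like cells had 180 CPM in each library (ratio 1.00 [0.932-1.08]), and neuron-like cells had 45.9 CPM in RA+BMP4 and 33.1 CPM in RA (ratio 1.39 [1.28-1.51]). Progenitor-like cells had 9.34 CPM in RA+BMP4 and 12.97 CPM in RA, and every other class was under 7 CPM. Whereas Dll1 was lower in neurons than in progenitors, Dll3 was higher in neurons than in progenitors in both libraries. By cluster, Dll3 reached 250 CPM in RA+BMP4 and 214 CPM in RA in the Atoh1-led newborn cells. Among neurons it reached 154 CPM and 138 CPM in the Lmx1b- and Tlx3-led cluster, 75.4 CPM and 84.3 CPM in the Lhx2-led cluster and 74.7 CPM and 38.1 CPM in the Foxd3-led cluster, with RA+BMP4 given first each time. The log2 ratio of Dll3 in neuron-like cells, 0.47, became -0.40 when each library was clustered alone and 1.03 with the stricter cell filter.

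Jag1 (chr2:137081456-137116644, minus strand), the ligand of the Serrate type, stayed under 32 CPM in every class. It was highest in newborn neuron-like cells, with 29.0 CPM [25.2-33.2] in RA+BMP4 and 31.8 CPM [28.2-35.9] in RA. A single RA cell of this class held 56 of its 271 Jag1 UMIs, and without the top cell of each library the levels were 27.4 CPM in RA+BMP4 and 25.3 CPM in RA. Progenitor-like cells had 16.1 CPM [12.9-20.02] in RA+BMP4 and 9.61 CPM [8.04-11.4] in RA, but this log2 ratio of 0.75 became -0.25 with the stricter cell filter. The order of the classes differed between the libraries. In RA, mesenchyme-like cells came second with 17.6 CPM, whereas in RA+BMP4 they had 5.31 CPM, a ratio of 0.302 [0.233-0.389] and a log2 ratio between -1.97 and -1.71 under all alternatives.

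Dll1 and Jag1 were compared through the difference of their log2 ratios between libraries, so each gene was first compared with itself. Over all kept cells it was -0.49 [-0.64 to -0.34], Dll1 being the more reduced in RA+BMP4. Within progenitor-like cells the difference was -0.36 [-0.78 to 0.07] and within newborn neuron-like cells -0.45 [-0.73 to -0.17]. Mesenchyme-like cells went the other way, at 0.82 [0.06 to 1.58], on 31 and 89 UMIs of Dll1 and Jag1 in RA+BMP4 and 42 and 213 UMIs in RA. With the same cluster mix in both libraries the difference over all cells was -0.041.

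Notch1 (chr2:26457903-26516663, minus strand), the receptor of neural progenitors, was highest in progenitor-like cells in both libraries, at 122 CPM [113-132] in RA+BMP4 and 150 CPM [143-156] in RA. Newborn neuron-like cells had 74.3 CPM in RA+BMP4 and 126 CPM in RA (ratio 0.591 [0.532-0.657]), and roof plate-like cells had 59.5 CPM and 68.4 CPM (ratio 0.869 [0.814-0.928]). Neurons were lowest, at 4.75 CPM in RA+BMP4 and 6.03 CPM in RA. Notch1 was lower in RA+BMP4 in each of these 4 classes, and the first 3 kept that direction under all alternatives. Mesenchyme-like cells had 11.1 CPM in RA+BMP4 and 30.5 CPM in RA, a ratio of 0.363 [0.303-0.435]. That made Notch1 the only member at least 2-fold apart in this class among the 3 that reached 20 CPM, against 0.881% lower, 0.835% higher and 1.72% either way over all genes of the class.

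Notch2 (chr3:98013527-98150361, plus strand) followed another pattern. It was highest in mesenchyme-like cells, with 50.4 CPM [47.0-53.9] in RA+BMP4 and 40.9 CPM [37.3-44.6] in RA, and next in roof plate-like cells, with 26.5 CPM and 35.7 CPM. Progenitor-like cells had 12.6 CPM in RA+BMP4 and 21.1 CPM in RA, and newborn neuron-like and neuron-like cells were under 8 CPM. So the receptors peaked in different classes, Notch1 in progenitors and Notch2 in mesenchyme, while roof plate-like cells had both. In progenitor-like and roof plate-like cells Notch2 was lower in RA+BMP4, with ratios of 0.601 [0.452-0.789] in progenitor-like and 0.740 [0.673-0.814] in roof plate-like cells, a direction kept under all alternatives.

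Lfng (chr5:140607320-140615545, plus strand), an enzyme that adds sugars to Notch in the Golgi and alters which ligands it answers to, was highest in progenitor-like cells. They had 12.5 CPM [9.59-15.9] in RA+BMP4 and 22.1 CPM [19.7-24.8] in RA, a ratio of 0.562 [0.423-0.738]. Roof plate-like cells had 7.93 CPM in RA+BMP4 and 5.91 CPM in RA, a ratio of 1.34 [1.09-1.66]. Its log2 value of 0.42 became -0.14 with the same cluster mix in both libraries. Lfng was near 1 CPM in neurons of both libraries.

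Among the targets, Hes5 (chr4:154960923-154962371, plus strand) was the gene of progenitors. Progenitor-like cells had 126 CPM [116-136] in RA+BMP4 and 207 CPM [199-215] in RA, a ratio of 0.607 [0.557-0.662]. Newborn neuron-like cells had 31.8 CPM [27.8-36.2] in RA+BMP4 and 99.1 CPM [92.6-106] in RA, a ratio of 0.321 [0.276-0.371]. Roof plate-like cells had 19.9 CPM and 23.9 CPM, and neuron-like, mesenchyme-like and pluripotent-like cells were under 5 CPM in both libraries. Hes5 had a ratio below 1 in all 6 classes shown, but in pluripotent-like cells it rested on 7 UMIs in RA+BMP4 and 32 in RA and its interval held 1, and among the 3 classes above 15 CPM the ratio was lowest in newborn neuron-like cells. The log2 ratio in progenitor-like cells stayed between -0.87 and -0.59 over all alternatives, and that in newborn neuron-like cells between -1.71 and -0.74. The sign was less firm in roof plate-like cells, where it ran from -0.99 to 0.28, and in mesenchyme-like cells, where it ran up to 0.06 on 20 UMIs in RA+BMP4 and 48 in RA. By cluster, Hes5 had 166 CPM in RA+BMP4 and 242 CPM in RA in the Hopx-led progenitors (257 RA+BMP4 cells and 509 RA cells). It had 64.9 CPM in RA+BMP4 and 158 CPM in RA in the progenitors led by histone genes (118 RA+BMP4 cells and 282 RA cells). In that histone-led cluster, neural progenitor markers summed to 2721 CPM in RA+BMP4 and 7819 CPM in RA. Peripheral sensory neuron markers summed to 195 CPM and 16.3 CPM there. In the Hopx-led cluster these sums were 4414 CPM and 9088 CPM, and 58.9 CPM and 19.4 CPM. The part of such cells in the Hes5 difference was not tested. In newborn cells Hes5 had 41.5 CPM in RA+BMP4 and 111 CPM in RA in the Neurog2-led cluster, and 20.8 CPM and 29.1 CPM in the Atoh1-led cluster.

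Hes5 had the largest whole-library difference, so its promoter is shown together with that of Lfng, the other member whose window held the letters TGGGAA (or TTCCCA on the opposite strand), the core of the motif bound by Rbpj. Windows from 250 bases before to 50 bases after the annotated start came from RefSeq on GRCm38.p6, and 8 of the 10 members had at least 1 window. Hes1 and Hey1 had none, so their promoters were not searched for these letters. Capitals mark the matched letters.
Hes5 promoter, chr4:154960673-154960972, plus strand: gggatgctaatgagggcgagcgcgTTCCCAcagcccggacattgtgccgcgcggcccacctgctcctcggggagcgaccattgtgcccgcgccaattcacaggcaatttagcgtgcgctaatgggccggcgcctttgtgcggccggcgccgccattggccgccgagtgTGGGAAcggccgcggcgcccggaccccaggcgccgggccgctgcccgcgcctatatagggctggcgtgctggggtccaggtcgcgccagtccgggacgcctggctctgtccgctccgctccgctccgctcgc
Lfng promoter, chr5:140607091-140607390, plus strand: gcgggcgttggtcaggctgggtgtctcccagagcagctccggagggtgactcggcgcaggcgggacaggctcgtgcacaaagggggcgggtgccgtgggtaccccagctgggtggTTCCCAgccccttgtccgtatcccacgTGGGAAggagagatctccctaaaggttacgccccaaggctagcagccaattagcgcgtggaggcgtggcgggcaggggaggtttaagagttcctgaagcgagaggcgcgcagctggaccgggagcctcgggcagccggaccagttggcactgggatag
Matches began at positions -226 and -82 relative to the start of Hes5, and at -135 and -108 relative to that of Lfng. In each gene the upstream match lay on the minus strand and the downstream match on the plus strand. The other 7 windows, for Nrarp, Notch1, Notch2, Jag1, Dll3 and 2 starts of Dll1, did not hold these letters. Over all 32851 RefSeq windows of the same length, 25.6% held at least 1 match and 3.79% held 2 or more. Both Hes5 matches and 1 of the Lfng matches had the longer form GTGGGAA. At least 1 such longer match was found in 6.38% of windows, and 2 or more in 0.256%. A match describes the sequence and is not a measured binding site.

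Nrarp (chr2:25180758-25183339, plus strand) ran parallel to Hes5. Progenitor-like cells had 48.6 CPM [42.8-55.1] in RA+BMP4 and 86.9 CPM [82.0-92.0] in RA, a ratio of 0.560 [0.486-0.642] that kept its direction under all alternatives. Newborn neuron-like cells had 9.86 CPM in RA+BMP4 and 21.7 CPM in RA, a ratio of 0.454 [0.340-0.599]. That log2 ratio of -1.14 became -0.06 with called doublets kept and -0.01 when each library was clustered alone, so it depends on where the class is drawn. At the settings used here, Hes5 and Nrarp were the 2 members called lower in newborn neuron-like cells out of 6 that reached 20 CPM, against 0.609% lower, 1.72% higher and 2.33% either way among all 6568 genes. Hey1 (chr3:8663359-8667256, minus strand), another repressor of this family, was low everywhere. It had 11.1 CPM in RA+BMP4 and 17.4 CPM in RA in progenitor-like cells, and 6.03 CPM and 14.9 CPM in mesenchyme-like cells.

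Hes1 (chr16:30064384-30067796, plus strand) peaked in a different cell class from Hes5, although some cells had both. It was highest in mesenchyme-like cells, with 127 CPM [122-132] in RA+BMP4 and 107 CPM [102-113] in RA, and next in roof plate-like cells, with 87.5 CPM [84.4-90.6] and 57.2 CPM [54.2-60.4]. Progenitor-like cells had 46.5 CPM [40.8-52.8] in RA+BMP4 and 37.3 CPM [34.1-40.7] in RA, and pluripotent-like cells had 31.6 CPM and 33.2 CPM. Newborn neuron-like cells were low, at 10.8 CPM in RA+BMP4 and 10.5 CPM in RA, a ratio of 1.04 [0.754-1.42]. The ratios were 1.53 [1.43-1.63] in roof plate-like, 1.25 [1.06-1.46] in progenitor-like and 1.18 [1.10-1.27] in mesenchyme-like cells, and all 3 stayed above 1 under all alternatives. Roof plate-like cells of the cluster led by Pla2g7, Rspo3 and Wnt1, which held 1688 RA+BMP4 cells and 189 RA cells, had 102 CPM of Hes1 in RA+BMP4 and 80.2 CPM in RA. The largest RA cluster of that class, led by Cp, held 168 RA+BMP4 cells and 458 RA cells, with 77.1 CPM and 53.0 CPM. Of the roof plate-like clusters, only the Pla2g7-led one had roof plate markers among its leading genes. The others were led by Cp and Colec12, by cell cycle genes or by histone genes. So the class values compare different mixes of clusters between the libraries, and the part of that mix was not tested. Neuron-like cells had 11.0 CPM in RA+BMP4 and 2.997 CPM in RA, a ratio of 3.67 [2.90-4.68], both under 20 CPM. Different clusters held this class in the libraries. The cluster with Sorcs3, Kctd4 and Barhl1 as leading genes, with 913 RA+BMP4 cells and 25 RA cells, held 159 of the 306 Hes1 UMIs of RA+BMP4 neurons and had 19.5 CPM [16.6-22.7] in RA+BMP4 and 3.41 CPM in RA, on 1 UMI. The Foxd3-led cluster, with 681 RA+BMP4 cells and 158 RA cells, had 3.97 CPM [2.66-5.71] in RA+BMP4 and 1.67 CPM in RA. The share of neuron-like cells with a Hes1 UMI, 4.76% in RA+BMP4 and 1.34% in RA, was the lowest of the 6 classes.

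**Figure D2:**
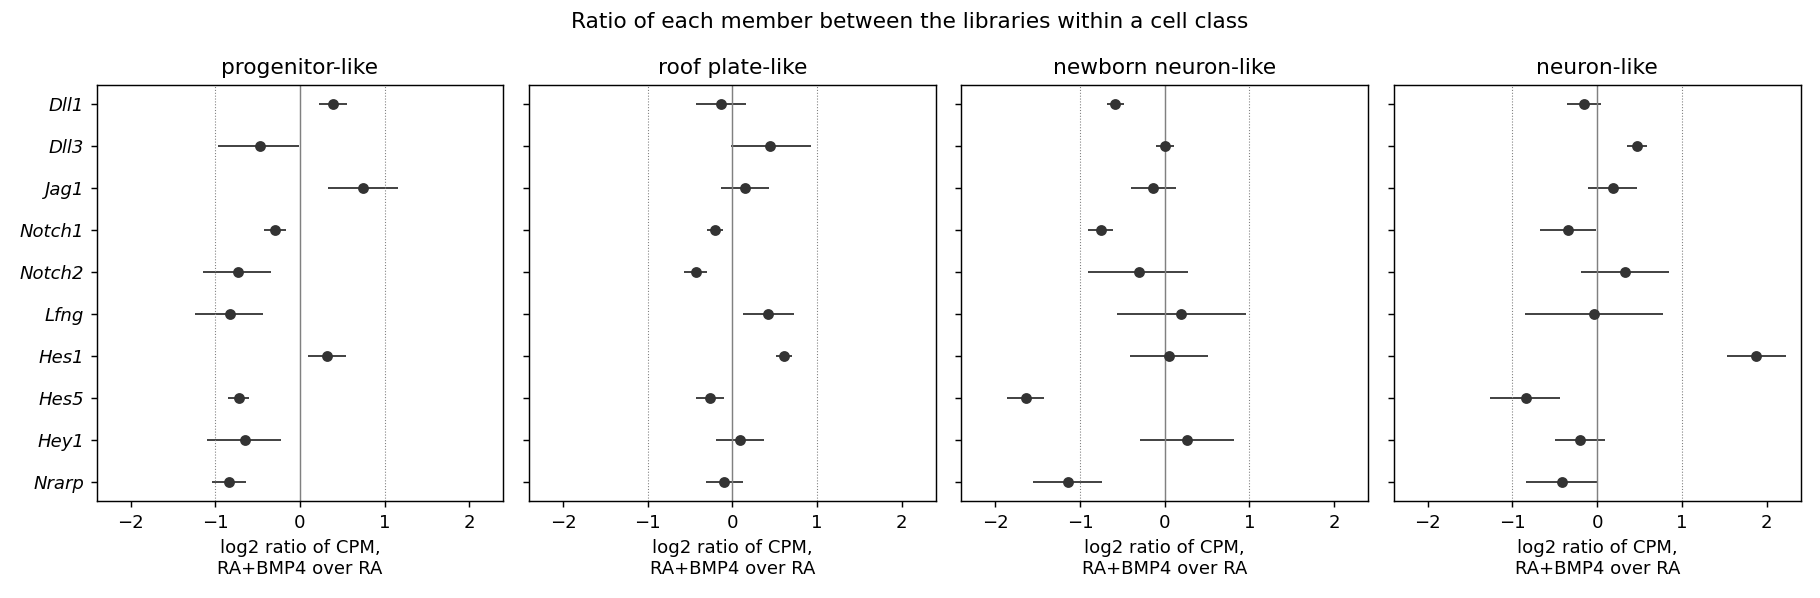
Log2 ratio of CPM, RA+BMP4 over RA (x axis), of each member in 4 cell classes. Points are single-library ratios, bars are exact 95% counting intervals, the solid line marks no difference and dotted lines mark 2-fold. Hes1 lies right of the line in progenitor-like and roof plate-like cells, and Hes5 lies left of it in all 4 classes.

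The difference between the log2 ratios of Hes1 and Hes5 summarises this split. It was 2.04 [1.94 to 2.14] over all kept cells. Neuron-like cells had the highest class value, 2.72 [2.20 to 3.24], on 76 Hes5 UMIs in RA+BMP4 and 154 in RA. Their Hes1 UMIs were 306 in RA+BMP4 and 94 in RA. Both genes were under 20 CPM in these cells, and different clusters held the class in the libraries, so its rank carries these limits. Mesenchyme-like cells had 1.97 [1.21 to 2.73], on 20 Hes5 UMIs in RA+BMP4 and 48 in RA. The value was 1.69 [1.21 to 2.18] in newborn neuron-like, 1.04 [0.78 to 1.29] in progenitor-like and 0.87 [0.69 to 1.06] in roof plate-like cells. In pluripotent-like cells, where Hes5 had 7 UMIs in RA+BMP4 and 32 in RA, the interval held 0 (0.65 [-0.55 to 1.85]). With the same cluster mix in both libraries the value over all cells was 1.20. The parts differed between classes. Hes1 was higher and Hes5 lower in RA+BMP4 progenitor-like cells, the value of newborn neuron-like cells came from Hes5 with Hes1 at a ratio of 1.04, and in roof plate-like cells the sign of Hes5 changed with the setting.

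Within progenitor-like cells, the ligands Dll1 and Jag1 and the target Hes1 were higher in RA+BMP4, and both receptors, Lfng, Dll3, Hes5, Hey1 and Nrarp were lower. The 7 members at 20 CPM or more had a median log2 ratio of -0.72, against 0.02 over 6700 genes. None of the 7 was 2-fold apart, against 1.42% higher, 0.746% lower and 2.16% either way among those genes. In the other classes the count was 0 of 4 in roof plate-like cells (1.47% higher, 1.18% lower and 2.65% either way among all genes), 0 of 1 in neuron-like cells (1.57%, 0.605% and 2.18%) and 0 of 1 in pluripotent-like cells (0.45%, 0.183% and 0.633%). Other markers differed in the same cells. Of 14 neural progenitor markers, 2 were higher in RA+BMP4, and the summed level was 3739 CPM in RA+BMP4 and 8557 CPM in RA, most of it Fabp7, a radial glia gene, with 2393 CPM and 6897 CPM. Sox2, which marks neural progenitors, was close, at 370 CPM and 386 CPM. Of 10 newborn neuron markers 9 were higher in RA+BMP4, with 549 CPM in sum, against 314 CPM in RA. Of 7 peripheral sensory neuron markers 6 were higher, with 113 CPM in sum, against 18.1 CPM in RA, and Isl1, picked after its values were seen, had 43.8 CPM in RA+BMP4 and 0.219 CPM in RA. Of 8 endoderm markers 7 were higher, with 44.9 CPM in sum, against 5.46 CPM in RA, but only 1 of the 8 reached 20 CPM. The part of all these markers in the differences of the 10 genes was not tested.

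Single cells were then sorted into senders and receivers. To compare libraries of different depth, every cell was thinned to 5000 UMIs, which left out 572 RA+BMP4 cells and 187 RA cells below that depth. A sender had at least 1 UMI of Dll1 or Jag1, and a receiver at least 1 UMI of Hes1, Hes5, Hey1 or Nrarp. Senders were 10.5% [9.82-11.2] of RA+BMP4 cells and 15.7% [14.7-16.6] of RA cells. Receivers were 28.1% [27.1-29.1] of RA+BMP4 cells and 27.6% [26.4-28.8] of RA cells. The receiver share was alike, but any Hes1 UMI counts toward it, and whether such a UMI marks Notch activity was not tested. The make-up of the share differed. Cells with Hes1 and no Hes5 were 18.8% in RA+BMP4 and 9.28% in RA, and cells with Hes5 and no Hes1 were 3.55% and 10.2%. Cells with both were 1.00% in RA+BMP4 and 1.72% in RA.

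Where the positive cells lay also differed. Of all RA+BMP4 cells with a Hes5 UMI, 43.5% were roof plate-like and 33.9% progenitor-like, whereas in RA 14.98% were roof plate-like and 58.3% progenitor-like. Of cells with a Hes1 UMI, 57.7% were roof plate-like in RA+BMP4 and 40.6% in RA. Dll1 cells lay mostly in newborn neuron-like and neuron-like cells, with 40.8% and 29.5% of them in RA+BMP4 and 46.2% and 26.3% in RA. Since these splits count cells, they follow the sizes of the classes as well as the genes.

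In progenitor-like cells, 28.8% of RA+BMP4 cells and 23.2% of RA cells were senders, and 57.5% of RA+BMP4 cells and 71.3% of RA cells were receivers. Hes5 was found in 33.5% of RA+BMP4 and 50.7% of RA progenitor-like cells after thinning, and in 52.5% and 74.7% before it. Hes1 without Hes5 was seen in 12.6% of RA+BMP4 and 6.51% of RA progenitors. Hes5 UMIs were found in 0.329% of RA+BMP4 mesenchyme-like cells (median 15708.5 UMIs before thinning) and in 0.623% of RA pluripotent-like cells (median 54182 UMIs), the lowest class shares and an upper limit for what free RNA gave there. Median depths of progenitor-like cells were 11678 UMIs in RA+BMP4 and 15732 UMIs in RA. In newborn neuron-like cells, senders were 37.5% in RA+BMP4 and 50.8% in RA, and receivers were 16.1% and 26.0%. Cells that were both at once were 8.51% of RA+BMP4 newborn cells and 19.4% of RA newborn cells. In roof plate-like cells senders were few, 5.77% in RA+BMP4 and 6.39% in RA, and receivers were 40.2% in RA+BMP4 and 36.2% in RA. The lowest class shares were 0.876% in RA+BMP4 and 0.696% in RA for Dll1 (mesenchyme-like), 1.22% and 2.18% for Jag1 (pluripotent-like) and 0.610% and 0.623% for Hey1 (pluripotent-like). For Nrarp the lowest share was 0 of 164 pluripotent-like cells in RA+BMP4, which allows a share of up to 1.83%, and 0.696% of mesenchyme-like cells in RA. Sender shares of a few percent can be read only beside these shares. Pluripotent-like cells were deep before thinning, with medians of 38961 UMIs in RA+BMP4 and 54182 UMIs in RA. Their shares need not be a limit for free RNA in shallower classes.

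**Figure D3:**
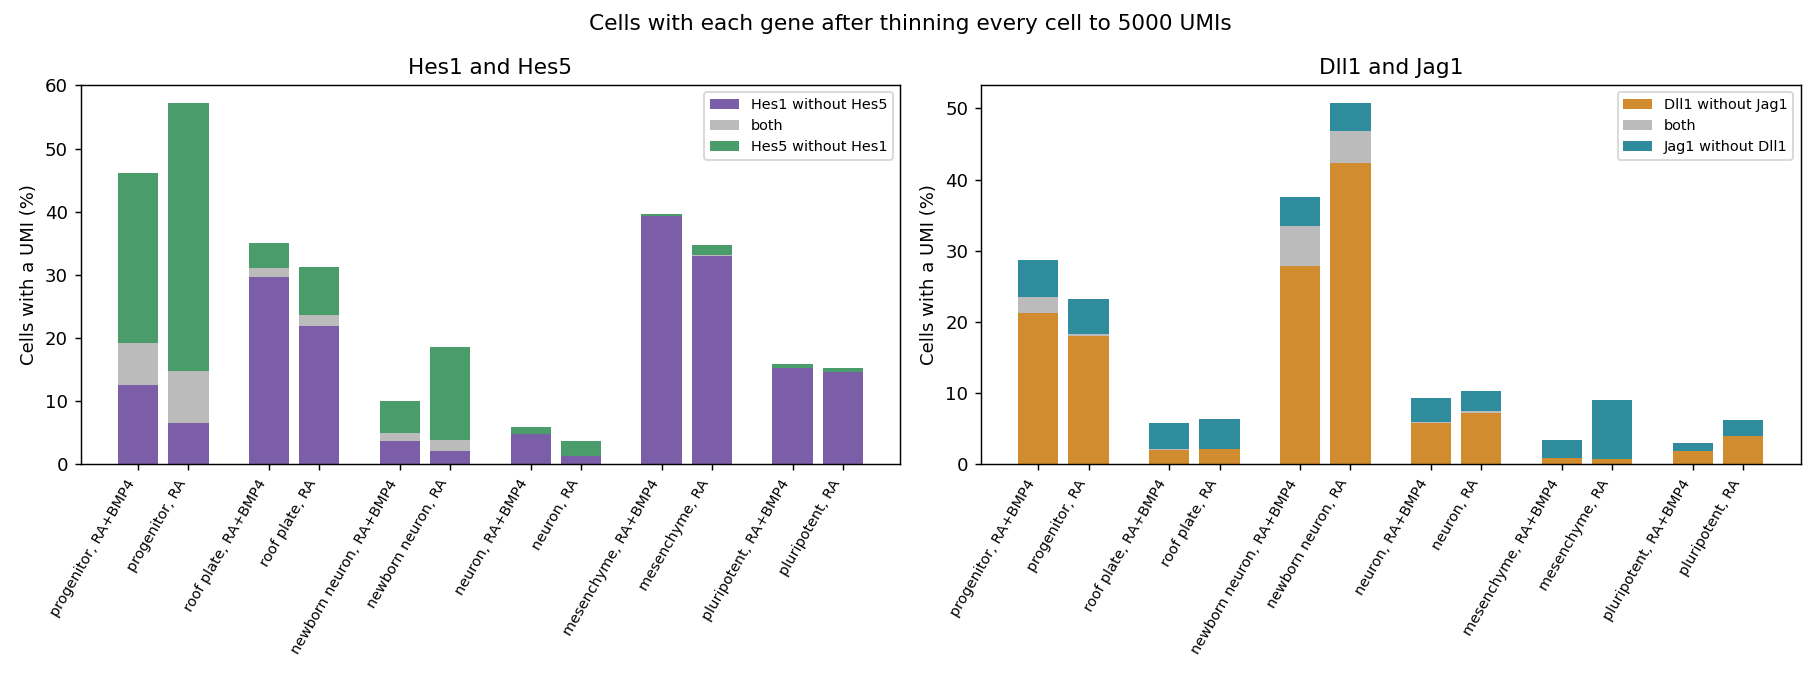
Percent of cells (y axis) with a UMI of Hes1, Hes5 or both (left) and of Dll1, Jag1 or both (right), by cell class and library, after thinning to 5000 UMIs per cell. Each bar is 1 library, RA+BMP4 left of RA in each class, and the names on the x axis are short for the "-like" classes. Hes5 without Hes1 is 26.8% of RA+BMP4 and 42.4% of RA progenitor-like cells, and Dll1 without Jag1 is 27.8% of RA+BMP4 and 42.3% of RA newborn neuron-like cells.

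Cells with both Dll1 and Jag1 were 0.656% of RA+BMP4 cells and 0.665% of RA cells. In progenitor-like cells, 8 of 358 RA+BMP4 cells (2.23%) and 2 of 783 RA cells (0.255%) had both. Among RA progenitor-like cells, Dll1 was seen in 4.88% [0.596-16.5] of cells with Jag1 and in 19.0% of cells without it. In RA+BMP4 progenitor-like cells the shares were 29.6% [13.8-50.2] of 27 cells with Jag1 and 23.0% of cells without it. In newborn neuron-like cells Dll1 was found in 57.8% of cells with Jag1 against 30.8% of cells without it in RA+BMP4, and 53.6% against 46.2% in RA. The few Jag1 newborn cells had Neurog1, a proneural factor, more often than newborn cells without Jag1. It was found in 32 of 64 RA+BMP4 cells with Jag1, against 19.7% of those without. In RA it was found in 42.9% [29.7-56.8] of cells with Jag1, against 13.8% of those without. Neurog2, a close relative, was found in 54.7% of Jag1 cells against 26.3% of other newborn cells in RA+BMP4, and in 21.4% against 21.5% in RA.

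In progenitor-like cells, the proneural factor Neurog1 was found in 27.4% of cells with Dll1 and 10.2% of cells without it in RA+BMP4, and in 7.69% of cells with Dll1 and 2.97% of cells without it in RA. In newborn neuron-like cells, Sox2, which marks progenitors, was found in 75.5% of RA+BMP4 newborn cells with Dll1 and 37.7% of those without, and in 65.1% of RA newborn cells with Dll1 and 35.9% of those without. Notch1 was found in 99 of 220 cells with Dll1 and in 16.7% of cells without Dll1 in RA+BMP4, and in 57.1% with and 26.8% without Dll1 in RA. Neurod4, a gene of the next step, went the other way, with 32.3% with and 50.7% without Dll1 in RA+BMP4, and 26.3% with and 48.9% without Dll1 in RA.

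**Figure D4:**
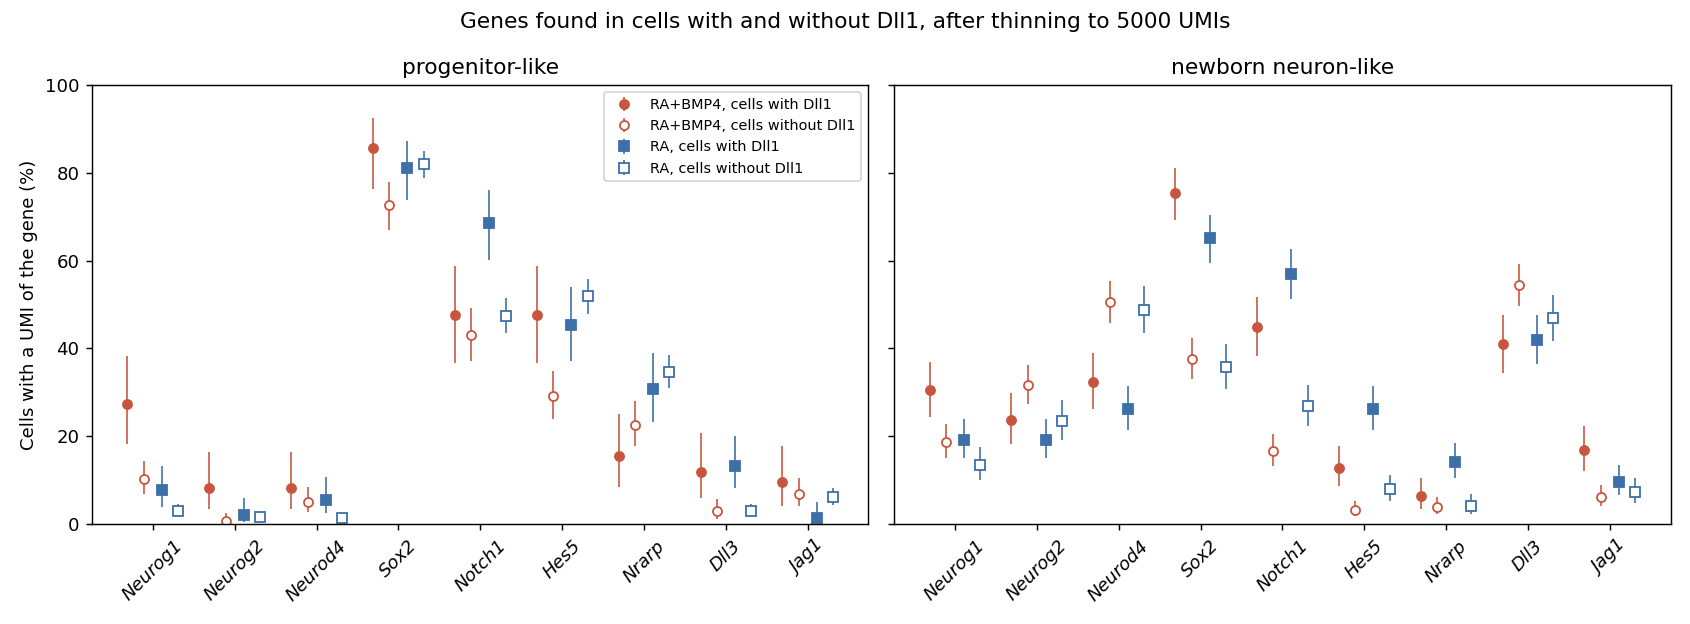
Percent of cells with a UMI of each gene on the x axis, in cells with Dll1 (filled) and without Dll1 (open), for RA+BMP4 (red circles) and RA (blue squares), after thinning to 5000 UMIs. Bars are exact 95% binomial intervals over cells of 1 library. In newborn neuron-like cells, Sox2 is at 75.5% with and 37.7% without Dll1 in RA+BMP4, and at 65.1% with and 35.9% without Dll1 in RA. Hes5 in progenitor-like cells is at 47.6% with and 29.2% without Dll1 in RA+BMP4, and at 45.5% with and 51.9% without Dll1 in RA.

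Senders were not free of receiver genes. In newborn neuron-like cells, Hes5 was found in 12.7% [8.63-17.9] of cells with Dll1 and 3.20% of cells without it in RA+BMP4, and in 26.3% [21.5-31.5] of cells with Dll1 and 7.91% of cells without it in RA. In progenitor-like cells it was found in 47.6% [36.6-58.8] with and 29.2% without Dll1 in RA+BMP4, and in 45.5% [37.1-54.0] with and 51.9% without Dll1 in RA. The ratio of these progenitor shares was 1.63 [1.22-2.18] in RA+BMP4 and 0.876 [0.721-1.06] in RA. The difference between the libraries was not tested. Over progenitor-like, roof plate-like and newborn neuron-like cells together, the ratio was 3.04 [2.41-3.85] in RA+BMP4 and 1.39 [1.19-1.62] in RA. Those pooled ratios also carry the different class mix, since roof plate-like cells, with Dll1 in 2.13% of RA+BMP4 and 2.22% of RA cells, are a larger share of RA+BMP4. Dll3 cells, in contrast, had less Hes5: among newborn neuron-like cells it was found in 3.34% with and 9.42% without Dll3 in RA+BMP4, and in 10.4% with and 21.4% without Dll3 in RA. All shares compared within a class can also carry its mix of clusters. Among newborn cells, the Neurog2-led cluster had more Dll1 and more Hes5 than the Atoh1-led one in both libraries. The part of that mix in the shares was not tested.

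Targets found in the same newborn cells overlapped. Hes1 was found in 21.4% [10.3-36.8] of RA+BMP4 newborn cells with Hes5 and 3.90% of those without, and in 10.9% [5.77-18.3] of RA newborn cells with Hes5 and 2.52% of those without. Nrarp was found in 19.0% with and 3.73% without Hes5 in RA+BMP4, and in 17.3% with and 7.19% without Hes5 in RA. In progenitor-like cells the shares for Hes1 lay closer together, with Hes1 in 24 of 120 cells with and in 18.9% of cells without Hes5 in RA+BMP4 and in 16.4% with and 13.2% without Hes5 in RA. Newborn cells that had Notch1 also had Hes5 more often, 13.95% against 3.70% of those without Notch1 in RA+BMP4, and 26.0% against 9.92% in RA.

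Across 41 cluster-by-library sums of at least 50 cells, Hes5 and Nrarp had the highest correlation of log2 level among the 10 genes (r = 0.911), with Notch2 and Hes1 next (r = 0.910). Lfng followed Nrarp (0.86) and Hes5 (0.84), and Notch1 followed Hes5 (0.83). Dll3 and Hes1 were the most opposed (-0.75). Hes1 and Hes5 had r = 0.20. The sums share libraries and neighbouring clusters, so these values are descriptions. Among 9872 genes outside the pathway lists, those most like Hes5 were Pax3 (0.90), Hopx (0.89) and Msx3 (0.89). Most like Hes1 were Ccdc102a (0.94), Add3 (0.93) and Hdlbp (0.93). Dll1 was nearest to Zc3h12c (0.89), Gadd45g (0.88) and Zbtb18 (0.87), Dll3 to Lzts1 (0.94), Igsf21 (0.94) and Necab3 (0.93), and Jag1 to Rgs16 (0.77), Btg2 (0.74) and Foxp4 (0.74). Notch1 was nearest to Pax3 (0.92), Acot1 (0.91) and Tmem123 (0.90), and Notch2 to Sdc2 (0.97), Gulp1 (0.96) and Mum1l1 (0.95). Lfng was nearest to Fgfr3 (0.92), Fam181a (0.92) and Cxcr4 (0.92), Nrarp to Hopx (0.89), Ttyh1 (0.86) and Fgfr3 (0.86), and Hey1, with the weakest likeness, to Zeb2 (0.66), Mgat1 (0.63) and Hip1 (0.60).

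Few other pathway genes were far apart between the libraries. Of 42 other ligands, receptors, processing enzymes, nuclear partners, targets and modifiers, 23 reached 20 CPM and none was 2-fold apart in either direction, with a median log2 ratio of 0.12, and the background was 1.44% of all genes. Of the 23, Dlk1 and Dner passed 1.5-fold. Dlk1, an atypical ligand known to inhibit Notch, had 118 CPM in RA+BMP4 and 64.0 CPM in RA (ratio 1.85 [1.80-1.91]), and Dner, a neuronal transmembrane protein related to Delta, had 58.0 CPM and 106 CPM (ratio 0.546 [0.529-0.564]). Dlk1 was highest in mesenchyme-like cells, at 525 CPM in RA+BMP4 and 324 CPM in RA. Dner was lower in RA+BMP4 in progenitor-like cells (17.9 CPM against 52.8 CPM in RA), newborn neuron-like cells (47.1 CPM against 114 CPM) and neuron-like cells (164 CPM against 290 CPM). Of the 23 other pathway genes at 20 CPM in progenitor-like cells, 1 was at least 2-fold lower (Dner) and 1 at least 2-fold higher, against 0.746% lower and 1.42% higher among all 6700 genes. The higher one, Mfng, a sister enzyme of Lfng, had 23.5 CPM in RA+BMP4 and 11.5 CPM in RA.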

How the data were processed

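The authors' deposited files hold UMI counts per gene and cell barcode for 1 RA+BMP4 and 1 RA library, made with Cell Ranger 3.0.2 on GRCm38 per the submitters' processing notes and the file headers. Nothing in the sources used here gives the gene annotation release, so coordinates were matched by gene ID to GENCODE on GRCm38. Barcodes with at least 1000 genes and at most 10% mitochondrial counts were kept, and doublets called by Scrublet (expected 8%) were removed. Cells were clustered jointly with scanpy 1.11.5 and leidenalg 0.10.2 on 3000 variable genes, 30 components and 20 neighbours at resolution 1, which gave 23 clusters. The 10 genes, pathway lists and marker lists were left out of clustering. The rule that names clusters was written after they were seen, so class edges are rebuilt here and are not the authors' own. Counts were summed per library and class. With 1 library per condition no test was run, and intervals (exact Poisson for levels, exact conditional binomial for ratios, Clopper-Pearson for shares, normal approximation for differences of log2 ratios and for share ratios) cover counting error only. Genes at 20 CPM or more in 1 library and 2-fold apart were counted, with a floor of 3 counts. Shares of cells used cells thinned to 5000 UMIs. Other pathway genes are named from 1.5-fold, and for each member the 3 genes of highest correlation of log2(CPM + 5) outside the pathway lists are named. The partner genes given beside Dll1, Jag1 and Hes5 were picked after their shares were seen. The 10 genes and all lists were chosen with earlier results of these data known. Interval and ratio code was tested on simulated data. R 4.3.3 with edgeR 4.0.16 was used for TMM scaling, an alternative whose effect is given with the others in the closing section. Results for 1 gene are not reported here.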

Additional observations from a re-analysis of the deposited data

Results flagged for a closer look

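For 6 members the log2 ratio of RA+BMP4 over RA had opposite signs in a pair of cell classes, with counting intervals on opposite sides of 0. The class pairs were picked for that contrast, there was 1 library per condition, and the difference was not tested in any of them. Jag1 had 0.75 in progenitor-like and -1.73 in mesenchyme-like cells, a gap of 2.475, and Dll1 had 0.39 and -0.91 in the same classes, a gap of 1.298. Nrarp had 1.21 in pluripotent-like cells, on 20 UMIs in RA+BMP4 and 24 UMIs in RA, and -1.14 in newborn neuron-like cells, a gap of 2.351. Lfng had 0.42 in roof plate-like and -1.05 in mesenchyme-like cells, a gap of 1.476. Notch2 had 0.30 in mesenchyme-like and -0.74 in progenitor-like cells, a gap of 1.037. Dll3 had 0.47 in neuron-like and -0.47 in progenitor-like cells, a gap of 0.947. Of these values, the progenitor-like ones of Jag1 and Dll1, the roof plate-like and mesenchyme-like ones of Lfng and the neuron-like one of Dll3 changed sign under at least 1 alternative, and both of Notch2 kept theirs.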

How the results depend on the processing

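Over all kept cells, Hes5 was the 1 member 2-fold apart. There were 2, Hes5 and Nrarp, with a stricter cell filter (at least 2000 genes, at most 5% mitochondrial counts), without pluripotent-like cells and with each cell weighted equally, and 0 with the same cluster mix in both libraries, which was chosen after seeing the data. The Hes1 to Hes5 difference of log2 ratios, 2.04, was 2.48 with the stricter filter, 2.22 without pluripotent-like cells, 2.47 with cells weighted equally and 1.20 with the same cluster mix. The Dll1 to Jag1 difference, -0.49, was -0.18, -0.79 and -0.041 with the stricter filter, equal cell weights and the same cluster mix. The Hes5 share ratio between cells with and without Dll1 ran from 2.45 to 3.80 in RA+BMP4 over all alternatives, and in RA it was 1.39, or 2.14 over all kept cells. No cause of these shifts was tested. Of 540 ratios within a class recomputed under alternatives, 88 moved beyond their counting interval and 46 changed sign, and of 100 such whole-library ratios 27 moved and 5 changed sign. Leaving out the top cell of each library was also chosen after seeing the data. Scaling shifted all log2 ratios by -0.06 (TMM) or -0.07 (median of ratios). No paired analysis was possible because each condition has 1 library. Members with few UMIs in a class are limited by depth.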

Other observations

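Roof plate-like cells and mesenchyme-like cells carried receiver genes without many senders. Among mesenchyme-like cells, receivers were 41.9% in RA+BMP4 and 40.1% in RA, nearly all through Hes1, since cells with Hes1 and no Hes5 were 39.3% in RA+BMP4 and 32.9% in RA. Senders in that class were 3.40% in RA+BMP4 and 9.05% in RA, and most RA senders had Jag1 without Dll1 (8.35% of cells, against 2.52% in RA+BMP4). In neuron-like cells, senders were 9.26% in RA+BMP4 and 10.2% in RA, and 81.8% and 81.9% of cells in those libraries were neither sender nor receiver. Among cells of the unnamed shallow cluster, Hes5 stood at 12.7 CPM in RA+BMP4 and 102 CPM in RA, and its cells belong to no class described above.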
